A study of Mus musculus with 6 samples.

Results

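Glycolysis and hypoxia response genes were examined in mouse embryonic fibroblasts (MEFs), connective tissue cells grown out of mouse embryos, with and without Atxn3, the gene for the deubiquitinating enzyme ataxin-3. The set holds 38 genes, listed by name: 20 of glycolysis and of pyruvate and lactate use, and 18 of the hypoxia response. A gene was read from the probe sets that name it and no other gene, and where several do, from the brightest of them by the mean of all 6 arrays. In this way 35 of the 38 genes were measured, among 18193 genes in all. Bnip3l is named only together with its pseudogene Bnip3l-ps, and Gpi1 and Eno1 matched no probe set in the annotation used here, so these 3 genes were not analysed here.

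The comparison asks which transcripts differ when Atxn3 is lost. Total RNA from 3 Atxn3-KO and 3 Atxn3-WT MEF samples was hybridized to Affymetrix GeneChip arrays for the mouse genome. Per the methods, the cells came from Atxn3-KO and wild-type littermate mice and both genotypes were kept in serum-containing DMEM, and the array samples have no treatment in their labels. The methods call the 3 samples of a genotype biological replicates. Whether each is a separate embryo or culture, the nature of the knockout allele and the oxygen level of the incubator are not given in the sources used here, so the p-values cover the spread among these samples and no more.

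Glycolysis splits glucose into pyruvate in the cytosol. Pyruvate is then reduced to lactate by lactate dehydrogenase or enters the mitochondrion, where pyruvate dehydrogenase passes it on to respiration and the pyruvate dehydrogenase kinases (PDKs) switch that enzyme off. The hypoxia-inducible factors (HIFs) pair an oxygen-controlled alpha subunit, HIF1A or EPAS1, with the stable partner ARNT. In the presence of oxygen the prolyl hydroxylases EGLN1 and EGLN3 mark the alpha subunit, and the VHL ubiquitin ligase then has it degraded, so that HIF activity is set mainly at the protein level, which these arrays do not read. HIFs bind a short core, ACGTG or GCGTG, and are known to induce many glycolytic genes, the genes for EGLN1 and EGLN3 themselves, and genes of pH control, mitophagy and collagen hydroxylation.

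That core was looked for on both strands in the 250 bases before the start of each gene, in the RefSeq promoter windows of build GRCm38.p6. A palindromic CACGTG counted once on each strand, overlapping matches were all counted, and the window with the most matches was kept for each gene. Of 33 measured members with a window, 29 (87.9%) held at least 1 core, against 53.6% of 14452 measured genes taken in the same way and 38.6% of all 32851 windows. The member windows were also richer in CpG, with a median of 16 CpG dinucleotides against 13 over the measured genes. Epas1, Ndrg1 and Bnip3l were not among the windows used here. Of the members with a window, the core was found in 7 of 7 that were higher in Atxn3-KO MEFs, 7 of 8 that were lower and 15 of 18 that did not pass the test, so it was common in each class. The ACGTG form alone was in 28.6%, 62.5% and 50% of these classes, against 21.8% of the measured genes. Their median CpG counts were 7, 19 and 19. These differences between small classes were not tested. A match is a description of the letters and not a binding site. Of the 4 windows shown, with every core in capitals and the rest in lower case, those of Aldoc and Ankrd37 belong to the members with the highest and lowest fold change, that of Ldha has 5 matches at a gene whose level did not pass the test, and that of P4ha2 has 3 matches at a collagen-modifying gene that was lower. Aldoc lies on the plus strand (chr11:78322823-78323072), Ankrd37 on the minus strand (chr8:45999851-46000100), Ldha on the plus strand (chr7:46845554-46845803) and P4ha2 on the plus strand (chr11:54100674-54100923).
Aldoc: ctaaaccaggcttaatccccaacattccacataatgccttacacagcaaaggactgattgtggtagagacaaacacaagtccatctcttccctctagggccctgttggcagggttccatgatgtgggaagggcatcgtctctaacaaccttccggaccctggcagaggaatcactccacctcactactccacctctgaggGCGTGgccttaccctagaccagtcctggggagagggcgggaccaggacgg
Ankrd37: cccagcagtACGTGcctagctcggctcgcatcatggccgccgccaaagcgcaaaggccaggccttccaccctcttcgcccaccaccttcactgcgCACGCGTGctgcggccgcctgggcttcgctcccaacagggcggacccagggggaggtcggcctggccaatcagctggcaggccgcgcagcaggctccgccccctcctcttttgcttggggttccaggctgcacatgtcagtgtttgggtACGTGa
Ldha: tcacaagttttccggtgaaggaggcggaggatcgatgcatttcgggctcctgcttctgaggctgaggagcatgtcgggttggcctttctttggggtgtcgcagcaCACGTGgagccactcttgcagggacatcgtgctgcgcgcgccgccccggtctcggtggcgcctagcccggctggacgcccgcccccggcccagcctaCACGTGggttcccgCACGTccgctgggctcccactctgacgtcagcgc
P4ha2: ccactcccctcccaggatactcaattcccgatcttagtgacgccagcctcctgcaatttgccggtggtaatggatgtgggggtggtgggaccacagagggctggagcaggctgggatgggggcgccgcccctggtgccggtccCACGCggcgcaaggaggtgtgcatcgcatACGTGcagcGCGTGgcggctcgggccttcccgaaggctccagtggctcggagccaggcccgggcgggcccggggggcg

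The median over all probe sets was 5.98 on the log2 scale, and pairs of arrays of 1 genotype correlated at 0.998 to 0.999. The brighter Atxn3 probe set read 3.60, 3.43 and 3.73 on the Atxn3-KO arrays and 6.53, 6.81 and 6.66 on the Atxn3-WT arrays, in accord with the labels. The mean of every one of the 35 members was above the 25th percentile of the arrays, and that of 34 was above the median level.

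Of the 35 measured genes, 16 (45.7%) passed an adjusted p under 0.05 in the limma fit over all 45037 probe sets: 7 were higher and 9 lower in Atxn3-KO MEFs, and 19 did not pass. Over all genes measured, 31.8% passed, 17.1% higher and 14.7% lower. Of the genes above the median level, where 34 of these 35 lie, 44.8% passed, so the share among the members was close to that of other well expressed genes. When a 2-fold change and an adjusted p no higher than 0.001 were both required, as in the methods, 2 members passed, Aldoc and Pdk4, against 1.93% of all genes. The arrays of the genotypes did not overlap for 19 members, against 49.2% of all genes. The median log2 fold change of the members was -0.019, against 0.0021 over all genes, and 29 of the 35 had a size under 0.5. The differences thus went both ways and lay in particular genes.

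**Figure D1:**
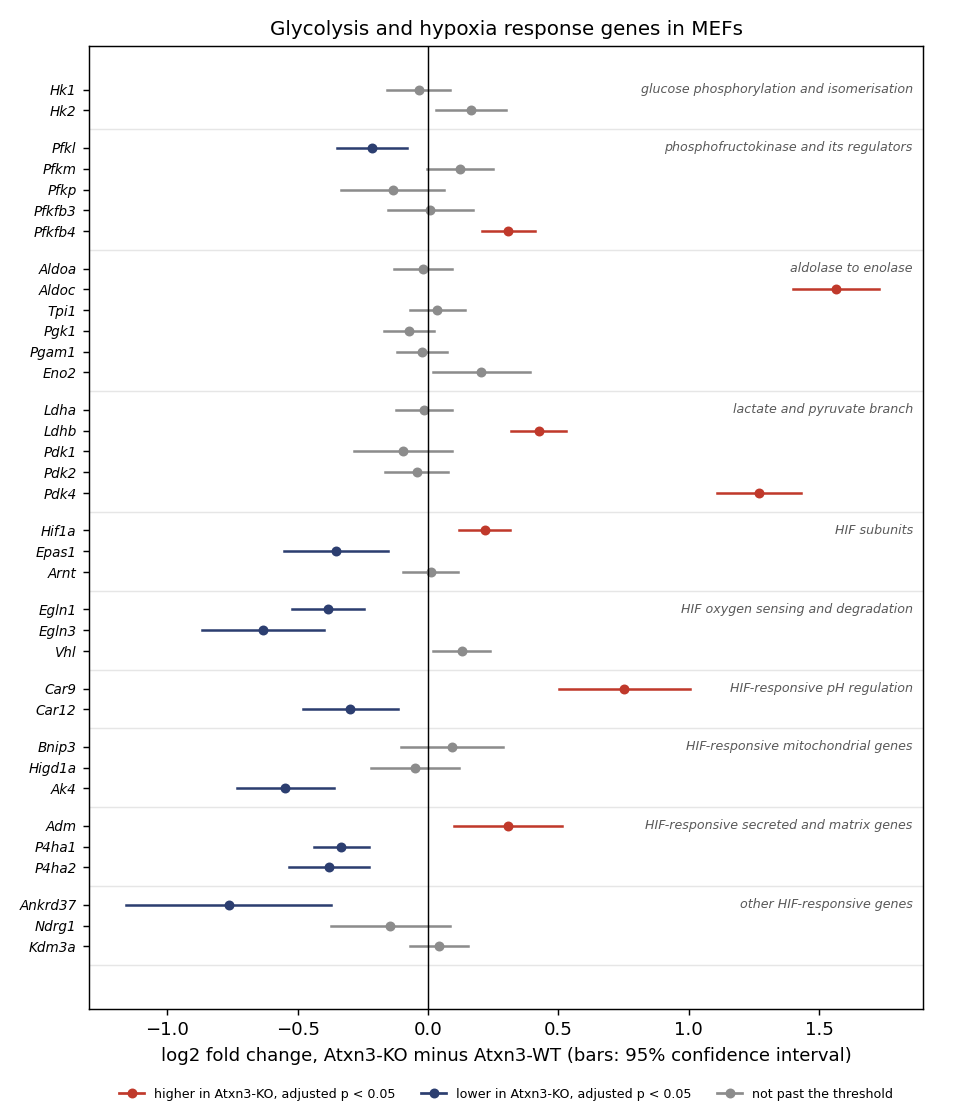
Log2 fold change of each measured gene (Atxn3-KO minus Atxn3-WT, points) with its 95% confidence interval from limma (bars), grouped by role from top to bottom, in red where higher, blue where lower and grey where an adjusted p of 0.05 was not passed. Among the genes of glycolysis and pyruvate use, Aldoc at 1.57, Pdk4 at 1.27, Ldhb at 0.42, Pfkfb4 at 0.31 and Pfkl at -0.22 are coloured, and 8 of the 9 genes that were lower belong to the hypoxia response.

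Most glycolytic genes differed little between the genotypes, and the widest differences lay in Aldoc and Pdk4, relatives of enzymes that did not pass the test. Among the 18 measured genes of glycolysis and pyruvate use, 4 were higher (Aldoc, Pdk4, Ldhb and Pfkfb4), 1 was lower (Pfkl) and 13 did not pass. Called were 27.8%, against 31.8% of all genes and 44.8% of the genes above the median level, where all 18 lie. Hexokinase, which traps glucose in the cell by phosphorylating it, is encoded in fibroblasts by Hk1 and Hk2. Hk1 had log2 levels of 11.02, 10.96 and 10.91 on the Atxn3-KO arrays and 11.02, 10.93 and 11.04 on the Atxn3-WT arrays. Hk2, the inducible form, read 9.91, 9.83 and 9.87 on the Atxn3-KO arrays and 9.72, 9.61 and 9.78 on the Atxn3-WT arrays. The groups overlapped for Hk1 and were apart for Hk2, with log2 fold changes of -0.036 (standard error, SE, 0.052, adjusted p = 0.668) and 0.16 (SE 0.057, adjusted p = 0.0757). With an intensity trend in the variance model, the adjusted p of Hk2 was 0.0137.

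Phosphofructokinase, the committed step of glycolysis, is built from liver (Pfkl), muscle (Pfkm) and platelet (Pfkp) type subunits. Pfkl averaged 12.16 ± 0.081 in Atxn3-KO MEFs and 12.38 ± 0.057 in Atxn3-WT MEFs (SD, n = 3 each), a log2 fold change of -0.22 (SE 0.058, adjusted p = 0.0307). This call was lost without Atxn3-KO replicate 2 or 3 or Atxn3-WT replicate 1 or 3, with adjusted p of 0.0995, 0.0859, 0.0842 and 0.0983. The other Pfkl probe sets had -0.29 (adjusted p = 0.0152) and -0.33 (adjusted p = 0.0940). Pfkm and Pfkp had log2 fold changes of 0.12 (adjusted p = 0.151) and -0.14 (adjusted p = 0.30). The Pfkp probe sets differed: the other 2 of its 3 passed as lower, with -0.27 (adjusted p = 0.0217) and -0.23 (adjusted p = 0.0409), and the mean of all 3 had -0.21 (adjusted p = 0.0162). The enzymes PFKFB3 and PFKFB4 make and break down the sugar bisphosphate that activates phosphofructokinase. Pfkfb4 rose, with 8.52 ± 0.021 in Atxn3-KO MEFs and 8.21 ± 0.037 in Atxn3-WT MEFs, a log2 fold change of 0.31 (SE 0.043, adjusted p = 0.00192), while Pfkfb3 had 0.0083 (adjusted p = 0.949).

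Aldoc, which encodes the aldolase best known from brain, had the highest fold change of all 35 genes. Its log2 levels were 7.98, 7.93 and 8.12 on the Atxn3-KO arrays and 6.50, 6.34 and 6.51 on the Atxn3-WT arrays. Every Atxn3-KO array was more than 1 log2 unit above every Atxn3-WT array, and the log2 fold change was 1.57 (SE 0.070, adjusted p = 9.75e-06), or 2.96-fold. A further Aldoc probe set lay below the 25th percentile in both genotypes and changed by 0.0011 on that scale (adjusted p = 0.992).

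Several abundant glycolytic transcripts had narrow intervals around 0. These 6 genes were grouped after their values were seen, among genes that did not pass, and Pfkl, described above, is not one of them. For Hk1, Aldoa (the main aldolase), Tpi1 (triose phosphate isomerase), Pgk1 (phosphoglycerate kinase), Pgam1 (phosphoglycerate mutase) and Ldha, the log2 fold changes ran from -0.071 to 0.036 and all 6 of their 95% confidence intervals lay between -0.17 and 0.14. Pgk1 read 13.71, 13.68 and 13.70 on the Atxn3-KO arrays and 13.77, 13.74 and 13.78 on the Atxn3-WT arrays. Its groups did not overlap, but the difference was small, with -0.071 (SE 0.041, adjusted p = 0.265), and it passed with an intensity trend (adjusted p = 0.0186). These 6 probe sets averaged between 10.96 and 13.77 in a genotype, and the highest single value of any probe set on any array was 14.7. Whether their signal was compressed near that end was not tested. Eno2, the neuronal enolase, had 0.20 (adjusted p = 0.106).

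At the branch between lactate and respiration, Ldhb and Pdk4 rose beside relatives that did not pass. Ldha, the lactate dehydrogenase subunit that favours lactate formation, read 13.51, 13.45 and 13.53 on the Atxn3-KO arrays and 13.49, 13.48 and 13.56 on the Atxn3-WT arrays, groups that overlap. Ldhb, the subunit typical of heart, averaged 10.88 ± 0.040 in Atxn3-KO MEFs and 10.45 ± 0.037 in Atxn3-WT MEFs (SD, n = 3 each). Its log2 fold change was 0.42 (SE 0.045, adjusted p = 5.76e-04), and all 4 Ldhb probe sets passed, with 0.42 to 0.52.

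Pdk4, the PDK induced by fasting and fatty acids, read 8.44, 8.56 and 8.58 on the Atxn3-KO arrays and 7.24, 7.16 and 7.37 on the Atxn3-WT arrays. The groups were again more than 1 log2 unit apart, with a log2 fold change of 1.27 (SE 0.068, adjusted p = 2.36e-05), or 2.41-fold. Pdk1, the HIF-induced member of the family, read 10.63, 10.51 and 10.56 on the Atxn3-KO arrays and 10.67, 10.51 and 10.81 on the Atxn3-WT arrays. Its groups overlapped, with -0.096 (SE 0.080, adjusted p = 0.447), and its 4 probe sets were not uniform: 1 of them passed with -0.28 (adjusted p = 0.0419). Pdk2 had -0.044 (adjusted p = 0.598).

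**Figure D2:**
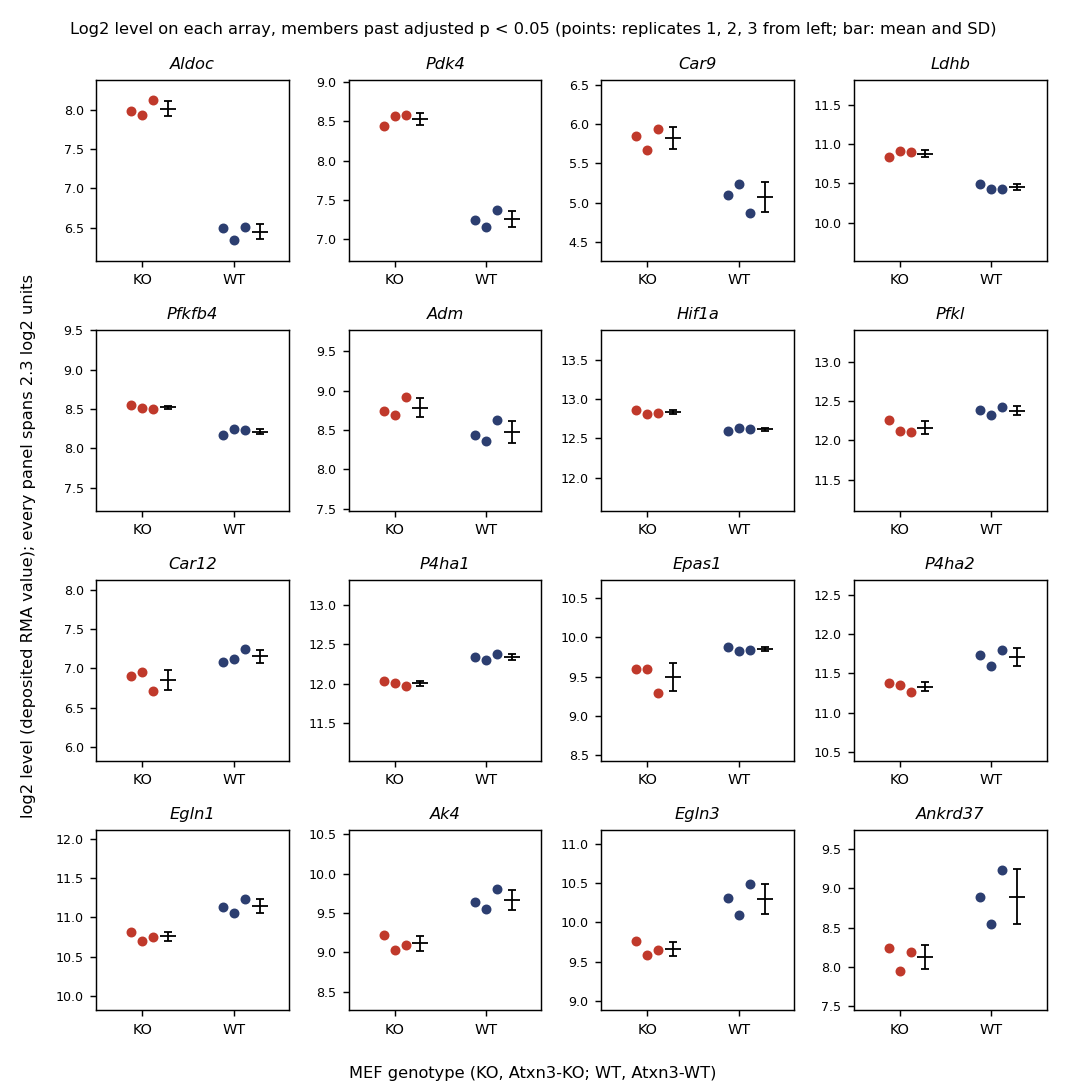
Log2 level (vertical axis, deposited RMA value, every panel spanning the same range) of the 16 genes past an adjusted p of 0.05 on each of the Atxn3-KO arrays (red, left) and Atxn3-WT arrays (blue, right), with the mean and SD of each genotype (n = 3). Aldoc and Pdk4 show the widest gaps between genotypes, and Ankrd37 the widest spread among the Atxn3-WT arrays.

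Of the HIF subunit and oxygen-sensing transcripts, Hif1a was higher, Epas1, Egln1 and Egln3 were lower, and Arnt and Vhl did not pass. Hif1a, the broadly expressed alpha subunit, read 12.86, 12.81 and 12.82 on the Atxn3-KO arrays and 12.60, 12.64 and 12.62 on the Atxn3-WT arrays. Every Atxn3-KO array was above every Atxn3-WT array by a small step, with a log2 fold change of 0.22 (SE 0.041, adjusted p = 0.00764). Of its other probe sets, 1 also passed with 0.24 (adjusted p = 0.00836), and the mean of all 4 had 0.13 (adjusted p = 0.0894). Epas1, the alpha subunit known from endothelium, read 9.59, 9.60 and 9.29 on the Atxn3-KO arrays and 9.87, 9.82 and 9.84 on the Atxn3-WT arrays. Atxn3-KO replicate 3 was the low array here. The log2 fold change of Epas1 was -0.35 (SE 0.085, adjusted p = 0.0204), and the call was lost without Atxn3-WT replicate 1, 2 or 3 (adjusted p = 0.0673, 0.0514 and 0.0572). The other Epas1 probe set had -0.055 (adjusted p = 0.557). Arnt, the shared partner, read 10.45, 10.49 and 10.49 on the Atxn3-KO arrays and 10.45, 10.44 and 10.52 on the Atxn3-WT arrays, which overlap, with 0.0097 (95% confidence interval -0.094 to 0.11, adjusted p = 0.905).

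Both HIF prolyl hydroxylase genes of the set were lower in Atxn3-KO MEFs. Egln2, a further gene of that family outside the set, had -0.030 (adjusted p = 0.728), and its groups overlapped. Egln1, the main oxygen sensor of most cells, read 10.82, 10.71 and 10.75 on the Atxn3-KO arrays and 11.14, 11.06 and 11.23 on the Atxn3-WT arrays. Egln3, the more strongly HIF-induced of the pair, read 9.76, 9.58 and 9.64 on the Atxn3-KO arrays and 10.31, 10.10 and 10.49 on the Atxn3-WT arrays. No array of one genotype reached the range of the other for either gene. The log2 fold change was -0.38 (SE 0.059, adjusted p = 0.00291) for Egln1 and -0.63 (SE 0.10, adjusted p = 0.00331) for Egln3, and a further probe set of each gene passed as well, with -0.36 and -0.60. Vhl read 9.93, 9.96 and 9.95 on the Atxn3-KO arrays and 9.83, 9.76 and 9.87 on the Atxn3-WT arrays. The Vhl groups were apart, but 0.13 (SE 0.046) missed the threshold (adjusted p = 0.0827), and it passed with an intensity trend (adjusted p = 0.0183).

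Of the 11 measured HIF-responsive members, 5 were lower, 2 higher and 4 did not pass, with a median log2 fold change of -0.15. Called were 63.6%, against 31.8% of all genes and 44.8% of the genes above the median level, where 10 of the 11 lie. The genes that were higher were Car9 and Adm. Car9, the membrane carbonic anhydrase that is among the most sharply HIF-induced genes, read 5.85, 5.67 and 5.94 on the Atxn3-KO arrays and 5.10, 5.23 and 4.86 on the Atxn3-WT arrays. All Atxn3-KO arrays were above the Atxn3-WT range, with a log2 fold change of 0.75 (SE 0.11, adjusted p = 0.00208), or 1.68-fold, although Car9 was the 1 member below the median level of the array. Car12, a related membrane carbonic anhydrase, went the other way: it averaged 6.85 ± 0.13 in Atxn3-KO MEFs and 7.15 ± 0.087 in Atxn3-WT MEFs (SD, n = 3 each), a log2 fold change of -0.30 (SE 0.077, adjusted p = 0.0272). The Car12 call was lost without Atxn3-KO replicate 1 or 3 or Atxn3-WT replicate 2 or 3, with adjusted p of 0.0550, 0.0549, 0.0611 and 0.0854. Its other probe sets had -0.15 (adjusted p = 0.111) and 0.012 (adjusted p = 0.925). The mean of all Car12 probe sets had -0.15 (adjusted p = 0.0622).

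Ankrd37, an ankyrin repeat gene used as a marker of HIF activity, had the lowest fold change of the 35. It read 8.24, 7.95 and 8.19 on the Atxn3-KO arrays and 8.89, 8.54 and 9.24 on the Atxn3-WT arrays. The groups were apart, and the Atxn3-WT arrays were themselves widely spread. The log2 fold change was -0.76 (SE 0.17, adjusted p = 0.0140), or 1.70-fold lower. Ak4, a mitochondrial adenylate kinase, read 9.22, 9.04 and 9.10 on the Atxn3-KO arrays and 9.64, 9.55 and 9.80 on the Atxn3-WT arrays. The ranges did not meet, with -0.55 (SE 0.079, adjusted p = 0.00223), or 1.46-fold lower.

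Both collagen prolyl hydroxylase genes of the set, which modify procollagen in the endoplasmic reticulum, fell. P4ha1 averaged 12.00 ± 0.034 in Atxn3-KO MEFs and 12.34 ± 0.040 in Atxn3-WT MEFs, with a log2 fold change of -0.33 (SE 0.045, adjusted p = 0.00164), and its other probe set passed with -0.70. P4ha2 averaged 11.33 ± 0.055 in Atxn3-KO MEFs and 11.71 ± 0.11 in Atxn3-WT MEFs (SD, n = 3 each), with -0.38 (SE 0.065, adjusted p = 0.00489). Adm, which encodes the vasodilator peptide adrenomedullin, averaged 8.78 ± 0.12 in Atxn3-KO MEFs and 8.47 ± 0.14 in Atxn3-WT MEFs, with 0.31 (SE 0.089, adjusted p = 0.0408). Its call was lost without Atxn3-KO replicate 1 or 3 or Atxn3-WT replicate 1 or 2 (adjusted p = 0.0792, 0.105, 0.117 and 0.117), and its other probe set had 0.17 (adjusted p = 0.241). Bnip3 (mitophagy), Higd1a (a mitochondrial inner membrane protein), Ndrg1 (a stress-induced gene) and Kdm3a (a histone demethylase) had log2 fold changes of 0.093, -0.049, -0.15 and 0.042, and none passed. Of the 20 further probe sets that name 1 of the 16 called genes, 10 passed in the same direction, 7 had the same direction and did not pass, 3 had the opposite direction and did not pass, and 0 passed in the opposite direction.

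The log2 difference between 2 related genes was taken on each array, which shows how their ratio changed and not which is the more abundant. Of 14 measured pairs, 11 had Atxn3-KO and Atxn3-WT arrays that did not overlap. Single genes did so in 49.2% of cases, the share over other gene pairs was not computed, and the pairs are not independent, since Pdk1, Pdk2, Pdk4, Pfkl, Pfkm and Pfkp each stand in several. In the exact two-sided permutation test each of these reached p = 0.1, the smallest that 3 against 3 arrays allow, which is 0.127 after adjustment over the 14 pairs, so none could pass 0.05. Aldoc minus Aldoa was -5.32 ± 0.13 in Atxn3-KO MEFs and -6.90 ± 0.046 in Atxn3-WT MEFs (SD, n = 3 each), a 3.00-fold shift of the ratio. Pdk4 minus Pdk1 was -2.04 ± 0.13 in Atxn3-KO MEFs and -3.40 ± 0.051 in Atxn3-WT MEFs, a 2.58-fold shift.

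Ldhb minus Ldha was -2.62 ± 0.069 in Atxn3-KO MEFs and -3.06 ± 0.067 in Atxn3-WT MEFs, a 1.36-fold shift toward Ldhb. Epas1 minus Hif1a was -3.34 ± 0.17 in Atxn3-KO MEFs and -2.77 ± 0.044 in Atxn3-WT MEFs, a 1.48-fold shift toward Hif1a. Car12 minus Car9 was 1.04 ± 0.26 in Atxn3-KO MEFs and 2.09 ± 0.26 in Atxn3-WT MEFs, a 2.07-fold shift toward Car9. The other pairs without overlap were Pdk4 and Pdk2, Pfkfb4 and Pfkfb3, Hk2 and Hk1, Pfkl and Pfkm, Pfkp and Pfkm, and Egln3 and Egln1, the last with a change of -0.25. In contrast, the arrays overlapped for Pfkp and Pfkl (exact p = 0.3), Pdk2 and Pdk1 (exact p = 0.5) and P4ha2 and P4ha1, whose difference changed by -0.045 (exact p = 0.4).

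**Figure D3:**
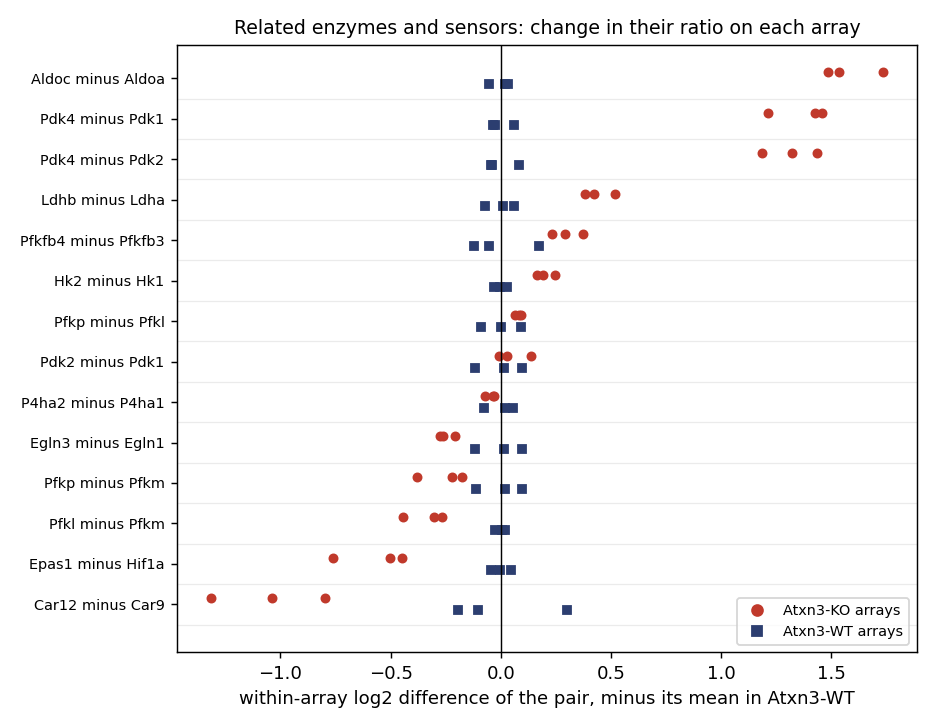
Log2 difference of each pair on each array minus its mean in Atxn3-WT (horizontal axis), for Atxn3-KO arrays (red circles) and Atxn3-WT arrays (blue squares), 3 each. Circles and squares are apart for 11 of the 14 pairs, most widely for Aldoc with Aldoa and Pdk4 with Pdk1, and mix for P4ha2 with P4ha1, Pdk2 with Pdk1 and Pfkp with Pfkl.

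The arrays of 1 genotype also differed from each other in these genes. Among the Atxn3-KO arrays, replicate 2 was the lowest for 19 of the 35 members (54.3%) and replicate 1 the highest for 20 (57.1%), against 24.9% and 25.5% of all genes above the median level. Among the Atxn3-WT arrays, replicate 2 was the lowest for 29 members (82.9%) and replicate 3 the highest for 28 (80.0%). Over all genes above the median level, Atxn3-WT replicate 2 was the lowest for 43.2% and replicate 3 the highest for 37.4%. The pattern was a description with no test, since the members share their arrays and vary together.

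The steps were small and were widest in the HIF-responsive members. The members' median deviation from the genotype mean was -0.061 on Atxn3-WT replicate 2 and 0.053 on replicate 3, where the medians over all genes were -0.0068 and 0.0044. The median SD within a genotype was 0.10 in Atxn3-KO MEFs and 0.13 in Atxn3-WT MEFs for the HIF-responsive members, against 0.057 and 0.058 over all genes. Ankrd37 had an SD of 0.35 among the Atxn3-WT arrays. Among the HIF-responsive members, only Car9 had Atxn3-WT replicate 2 the highest, at 5.23, and replicate 3 the lowest, at 4.86. Without Atxn3-WT replicate 2, 6 members were higher and 7 lower, and without Atxn3-WT replicate 3, 7 were higher and 6 lower. In a list of 34 measured HIF-responsive genes that are not members, Atxn3-KO replicate 2 was the lowest for 20 and replicate 1 the highest for 21, and Atxn3-WT replicate 2 was the lowest for 27 and replicate 3 the highest for 26. In the 33 measured other genes of glycolysis and pyruvate use, Atxn3-KO replicate 2 was the lowest for 7 and replicate 1 the highest for 12, and the Atxn3-WT counts were 16 and 19. What separates these arrays is not given in the labels.

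**Figure D4:**
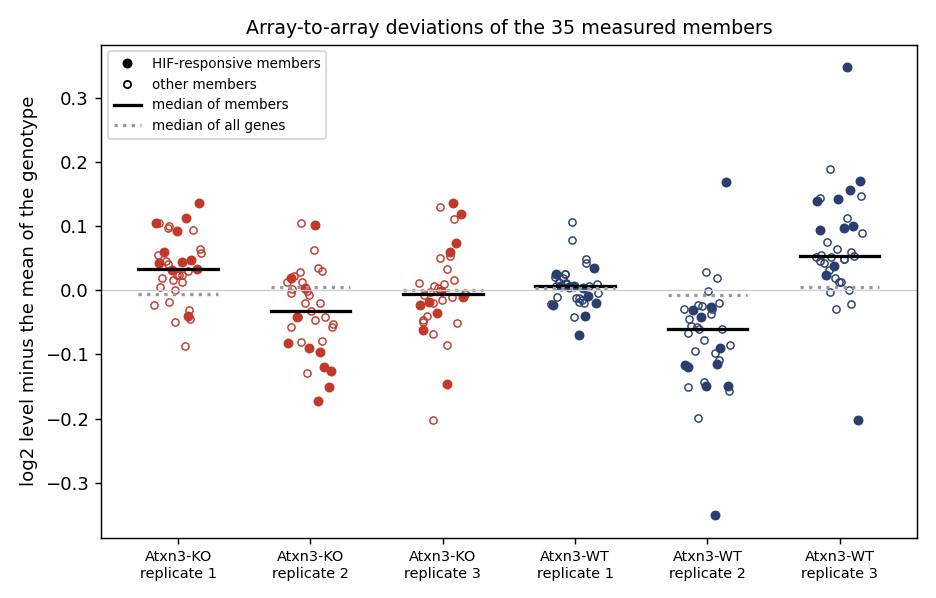
Log2 level of each of the 35 measured genes minus the mean of its genotype (vertical axis) on each array, filled for HIF-responsive members and open for the others, with the median of the members (solid line) and of all genes (dotted line). The members sit low on Atxn3-WT replicate 2 (median -0.061) and high on Atxn3-WT replicate 3 (median 0.053), while the dotted lines stay near 0.

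Other genes of the same pathways, from lists of genes that are not members, also moved both ways. Of 33 measured genes of glycolysis and pyruvate use, 8 were higher, 3 lower and 22 did not pass (33.3% called, near the 31.8% of all genes), with a median log2 fold change of 0.036. The widest changes were in Pdp1, Pdha1 and Mpc1, genes of pyruvate dehydrogenase or of pyruvate entry into the mitochondrion. Pdp1, a phosphatase that switches pyruvate dehydrogenase on again, averaged 8.34 ± 0.022 in Atxn3-KO MEFs and 7.87 ± 0.084 in Atxn3-WT MEFs, with 0.47 (adjusted p = 7.84e-04). Pdha1, a catalytic subunit of that enzyme, had 0.40 (adjusted p = 7.20e-04), and Mpc1, a subunit of the mitochondrial pyruvate carrier, had 0.39 (adjusted p = 9.06e-04). Relatives of these genes went the other way: Pdp2, the other pyruvate dehydrogenase phosphatase, was lower, with -0.32 (adjusted p = 0.00597), and so was Pdhb, the partner subunit of Pdha1, with -0.29 (adjusted p = 0.00202). Elsewhere in this list, Bpgm was higher, with 0.35 (adjusted p = 0.0113), and Eno3, an enolase gene, was lower, with -0.30 (adjusted p = 0.00639). Pdp2, Pdhb, Bpgm and Eno3 were named after their values were seen.

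Of 18 measured regulators of the HIF pathway outside the set, 2 were higher, 4 lower and 12 did not pass. That is 33.3% called, against 31.8% of all genes and 44.8% of the genes above the median level. Without Atxn3-KO replicate 1 or 2 or Atxn3-WT replicate 1 or 2, 2 were lower. Cited2, which competes with HIF for its coactivators, was higher, with 12.59 ± 0.057 in Atxn3-KO MEFs, 12.18 ± 0.017 in Atxn3-WT MEFs and a log2 fold change of 0.41 (adjusted p = 7.61e-04). Siah2, a ubiquitin ligase that degrades EGLN proteins, was lower, with -0.33 (adjusted p = 0.00272). The other gene that was higher, Hspb11 (0.28, adjusted p = 0.00240), encodes a protein of intraflagellar transport and is not a HIF regulator in the usual sense.

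Of 34 measured HIF-responsive genes outside the set, 8 were higher, 11 lower and 15 did not pass (55.9% called, against 44.8% of the genes above the median level), with a median log2 fold change of -0.072. Without Atxn3-KO replicate 1 or 3 or Atxn3-WT replicate 1, 5 of them were higher. The widest changes were in the transporter genes Slc2a3 and Slc16a3. Slc2a3, a high-affinity glucose transporter, read 8.48, 8.24 and 8.32 on the Atxn3-KO arrays and 10.54, 10.35 and 10.59 on the Atxn3-WT arrays. The groups lay far apart, with a log2 fold change of -2.15 (SE 0.084, adjusted p = 5.19e-06). Slc2a1, the glucose transporter of most cultured cells and named after its value was seen, was higher, with 0.25 (adjusted p = 0.0256). Slc16a3, the monocarboxylate transporter that exports lactate, averaged 8.48 ± 0.093 in Atxn3-KO MEFs and 7.59 ± 0.21 in Atxn3-WT MEFs, with 0.89 (adjusted p = 9.09e-04). Plod1, a collagen lysyl hydroxylase, had 0.76 (adjusted p = 4.75e-05), a direction opposite to that of P4ha1 and P4ha2.

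Markers of the cells were read beside these genes, since in bulk RNA fewer cells of a type and less RNA per cell cannot be told apart. The 10 fibroblast markers were all present, with a list mean of 12.7 to 12.8 on the Atxn3-KO arrays and 12.8 on the Atxn3-WT arrays. Of these, 1 was higher (Pdgfrb, 0.25, named after its value was seen) and 5 did not pass. The other 4 were lower, among them Col3a1 (-0.28), Pdgfra (-0.28) and Col1a2 (-0.26). Of 6 epithelial markers, 2 were higher and 0 lower, and the list mean was 5.37 to 5.49 on the Atxn3-KO arrays and 5.06 to 5.16 on the Atxn3-WT arrays. Epcam had 0.38. Krt18 had 1.27, which is not exact because its mean in Atxn3-WT MEFs lay below the 25th percentile, and Cdh1, the defining cadherin, lay below it in both genotypes. Of the endothelial, macrophage and skeletal muscle lists, 5 genes each, 0 passed in either direction, with list means of 4.68 to 4.74, 4.87 to 4.95 and 5.25 to 5.37 on the Atxn3-KO arrays and 4.69 to 4.76, 4.89 to 4.95 and 5.29 to 5.33 on the Atxn3-WT arrays. Of 9 measured cell cycle genes, 1 was higher (Mcm2, 0.35) and 2 lower (Mcm5, -0.17, and Top2a, -0.16). The part of the fibroblast, epithelial and cell cycle differences in the results above was not tested.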

How the data were processed

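Expression was measured in 3 Atxn3-KO and 3 Atxn3-WT MEF samples, grouped by their labels. The authors normalized the arrays by RMA, which corrects background, quantile-normalizes and summarizes probes, and deposited log2 values for 45101 probe sets. RMA removes any shift common to all genes and pulls fold changes of dim probe sets toward 0. The processing notes name RMA and limma without versions.

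The contrast Atxn3-KO minus Atxn3-WT was fitted to these values with lmFit and eBayes of limma (version 3.58.1, R version 4.3.3). Arrays had equal weights, because the methods name a weighted model without its weights. Adjustment was by Benjamini-Hochberg over 45037 probe sets, without 64 controls and with dim probe sets kept. Of these, 34945 name 1 gene, 932 several and 9160 none. Of those with 1 gene, 34741 were found in RefSeq (GRCm38.p6), with 0 changes of symbol. Thresholds were an adjusted p under 0.05 and, as in the methods, 0.001 together with a 2-fold change. Pairs of genes were compared with an exact permutation test. Promoter windows came from RefSeq on the same build.

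Values on each array were given for the HIF subunits and oxygen sensors, Hk1, Hk2, Pgk1, Ldha, Pdk1 and members past 0.05 with a log2 fold change of at least 0.5 in size. From each other list up to 3 genes past 0.05 with the widest change were named. The members and lists were chosen with earlier results of these data known. Data were simulated for this comparison with 45037 probe sets. Calls were made for 74% of 100 changed by 0.5 on the log2 scale and 94% of 100 changed by 1. The rest were unchanged, whereas 31.8% of genes passed in the real data, so these shares are not the power there. At most 0.386% of values were identical between 2 arrays. Alternatives were array weights, a replicate block, variance models, normalizations, filters on dim probe sets, probe set rules, thresholds and fits without 1 array. Precision is limited by there being 3 arrays a genotype.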

Additional observations from a re-analysis of the deposited data

How the results depend on the processing

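Of 628 values of the members over the alternatives other than the stricter thresholds, 581 kept their direction and their side of the threshold, 22 kept the direction but no longer passed, 12 passed newly and 13 changed sign. Of the 16 calls, 12 remained in every fit that left out 1 array, and Adm, Car12, Epas1 and Pfkl were lost in some. Members higher numbered 11 with an intensity trend and 3 when tested against a 1.2-fold change (Aldoc, Car9 and Pdk4), in place of 7. Members lower numbered 5 at an adjusted p under 0.01 and 0 against a 1.2-fold change, in place of 9. Leaving out 1 array gave 6 to 7 higher and 6 to 8 lower. With the mean of all probe sets of a gene, 1 member in place of 2 passed the 2-fold threshold.

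In the fit with the replicate block, 7 members were higher and 7 lower, with Car12 (adjusted p = 0.0691) and Pfkl (0.0533) lost, and 2 other HIF regulators were lower in place of 4. Over all probe sets, same-numbered arrays did not deviate together (correlations -0.036 to 0.021, with 2 of 6 arrays correlating best with their own number), so the numbers were not taken as pairs. Among the 35 members, replicate 2 was most often the lowest in both genotypes (19 in Atxn3-KO, 29 in Atxn3-WT). The most often highest was replicate 1 in Atxn3-KO (20) and replicate 3 in Atxn3-WT (28).

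For the other genes of glycolysis and pyruvate use, 8 higher became 4 at 0.01 and 0 against a 1.2-fold change. The 3 lower became 6 with an intensity trend, 6 without probe sets under the median level, 7 without those under the 25th percentile, 6 with the mean of all probe sets and 0 against a 1.2-fold change. For the other HIF regulators, 2 higher became 4 with the trend, 4 without probe sets under the median level, 1 with the mean of all probe sets and 0 against a 1.2-fold change, and 4 lower became 2 at 0.01, 0 against a 1.2-fold change and 2 to 5 without 1 array. For the other HIF-responsive genes, 8 higher became 4 at 0.01, 3 against a 1.2-fold change and 5 to 7 without 1 array, and 11 lower became 7 at 0.01 and 3 against a 1.2-fold change.

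The sign changes were all near 0. Pfkfb3 had -0.0025 with array weights, -0.049 with the mean of all probe sets and -0.063 to 0.048 without 1 array. Arnt had -0.0070 with the mean of all probe sets and -0.0052 to 0.036 without 1 array. Without 1 array, Aldoa had -0.047 to 0.0022, Higd1a -0.094 to 0.011 and Ldha -0.032 to 0.0090. The cause was not tested. No other background correction was run, since it cannot be made from RMA values. With 3 arrays a group, small differences passed or failed by how the variance was modelled: Eno2, Hk2, Pfkm and Vhl passed newly as higher, and Pgk1 as lower, with the intensity trend.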
